A study of Mus musculus with 11 samples.

Results

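The genes described here encode subunits of the mitochondrial oxidative phosphorylation complexes. They were chosen by symbol alone: a gene was a member if a probe set with that single symbol began with Nduf followed by a, b, c, s or v and a number, was Sdha, Sdhb, Sdhc or Sdhd, or began with Uqcr, with Cox4 to Cox8 and a letter, or with Atp5. Of 18193 genes with a probe set of their own, 81 met the rule. They fell into 35 genes of complex I, 4 of complex II, 8 of complex III, 17 of complex IV and 17 of complex V. Each gene was read on 1 probe set, the one with the highest mean over the arrays. The rule itself uses no measured difference between cell types, although this set of genes was chosen with earlier results of these data known.

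RNA came from motor neurons of C57/BL6 mouse embryos that carried the Hb9::GFP reporter, in which the Hb9 promoter drives green fluorescent protein in motor neurons. The cells were sorted by flow cytometry after a rhodamine-coupled dextran had been applied to a nerve of the trunk explant, so all groups share the reporter, the explant step and the sort. Phrenic motor neurons, labelled through the nerve of the diaphragm, made up 4 arrays. Neurons of the lateral motor column, labelled from the radial nerve of the forelimb (LMC radial), made up 3. Cells from segments C3-C5 that carried the reporter without the dextran (C3-C5 GFP-only) made up 4. The labels give no embryonic day, nor do they say how many embryos were pooled or whether each replicate had embryos of its own. The p-values therefore cover only the spread between arrays, which may be technical. Each group is a reporter sort, and its cell makeup was not given beyond the nerve and segments. No segment is given for LMC radial samples, so column and segment cannot be told apart in comparisons with them.

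Oxidative phosphorylation moves electrons through 4 complexes of the inner mitochondrial membrane and uses the resulting proton gradient to make ATP. Complex I oxidises NADH and complex II succinate, both pass electrons to ubiquinone, complex III hands them to cytochrome c, complex IV reduces oxygen, and complex V is the ATP synthase. The mitochondrial genome encodes a small set of catalytic subunits, and the nucleus encodes the members described here. Neurons rely on this pathway to restore ion gradients after firing and to supply long axons. Several complex IV subunits exist as a widely expressed form and a tissue-restricted form, such as the heart and skeletal muscle forms Cox6a2, Cox7a1 and Cox8b, the lung form Cox4i2 and the testis forms Cox6b2 and Cox8c.

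Promoters of nuclear respiratory genes are known for sites of NRF1 (nuclear respiratory factor 1) and of ETS-family factors, which include GABP. RefSeq promoter windows of 300 bases (GRCm38.p6, 250 before to 50 after the transcription start) were found for 66 of the 81 members, 71 windows in all because a few genes have several starts. The core of the NRF1 motif, GCGCA followed by any base and GCGC, was present on either strand in 16 of the 71 windows (22.5%), against 4.6% of 32851 windows of all genes. The ETS core CCGGAAG was present in 17 windows (23.9%), against 8.86% of all windows. The YY1 core AAGATGGC was present in 9 (12.7%), against 2.75%. The letters TATAAA were present in 9 (12.7%), against 13.6%. A total of 36 of the 66 genes held at least 1 of the NRF1, ETS and YY1 cores. These matches describe the letters only. The motifs given were kept from a longer list after their counts were seen, so the shares are no test of enrichment. The spellings can share no more than a few end bases, and NRF1 matches read on both strands at 1 place were counted once per window.

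Only 4 members held both the NRF1 and the ETS core in 1 window, namely Atp5h, Atp5k, Cox6a1 and Sdhd. The 200 bases before the start of 3 of them are shown because they hold both cores, next to that of Cox8b, a muscle form without either. Capitals mark the NRF1 core (read on either strand) and the ETS core (CCGGAAG, here in its reverse complement). The sequences run 5′ to 3′ on the minus strand of GRCm38.p6, at chr5:115348959-115349158 for Cox6a1, chr9:50603850-50604049 for Sdhd, chr11:115419920-115420119 for Atp5h and chr7:140900447-140900646 for Cox8b.
Cox6a1: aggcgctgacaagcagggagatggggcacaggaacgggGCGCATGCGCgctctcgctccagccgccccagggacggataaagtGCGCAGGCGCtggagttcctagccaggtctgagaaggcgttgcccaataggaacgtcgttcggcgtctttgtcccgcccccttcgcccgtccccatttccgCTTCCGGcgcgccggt
Sdhd: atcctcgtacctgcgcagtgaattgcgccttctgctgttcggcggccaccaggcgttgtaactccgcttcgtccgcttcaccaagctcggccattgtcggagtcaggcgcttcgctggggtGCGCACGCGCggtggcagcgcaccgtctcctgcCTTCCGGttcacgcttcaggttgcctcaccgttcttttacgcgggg
Atp5h: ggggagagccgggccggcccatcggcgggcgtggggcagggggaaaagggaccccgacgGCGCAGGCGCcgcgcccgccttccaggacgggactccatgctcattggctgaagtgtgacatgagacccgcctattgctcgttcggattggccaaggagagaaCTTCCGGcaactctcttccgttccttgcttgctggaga
Cox8b: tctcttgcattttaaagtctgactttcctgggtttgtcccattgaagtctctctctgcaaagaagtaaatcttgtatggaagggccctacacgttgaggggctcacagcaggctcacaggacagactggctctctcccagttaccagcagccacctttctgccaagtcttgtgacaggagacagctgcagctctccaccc

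Array medians of all probe sets ran from 4.48 to 4.63 (log2), so a value below 5 lies near or below the middle of all probe sets and its order between genes cannot be read. In 4 arrays, replicates 2 and 3 of the phrenic and of the C3-C5 GFP-only groups, the 25th percentile lay lower (3.18 to 3.20) than in the other 7 (3.26 to 3.38), which hold all LMC radial arrays. Of 9 motor neuron markers none was below 5 on all arrays, and their array means were 7.91 to 8.12 in phrenic, 7.17 to 7.41 in LMC radial and 8.94 to 9.11 in C3-C5 GFP-only samples. Against C3-C5 GFP-only neurons 6 of the 9 lay below 0 in phrenic neurons (median -0.22) and 9 of 9 in LMC radial neurons (median -0.93). At an adjusted p under 0.05, 3 (33.3%) and 5 (55.6%) were lower, against 0.986% and 1.88% of all probe sets. Lhx3 had the smallest adjusted p in both, and the differences reached -4.90 and -6.16, so the list mean rests partly on single genes. In phrenic against LMC radial neurons 8 of the 9 lay above 0 (median 0.32). There 2 (22.2%) were higher at an adjusted p under 0.05, against 3.48% of all probe sets. Array means of 18 mesenchyme and cartilage markers ran from 5.31 to 6.86 in phrenic, 5.13 to 6.17 in LMC radial and 4.62 to 4.99 in C3-C5 GFP-only samples, with 16 of the 18 above 0 in phrenic against C3-C5 GFP-only neurons (median log2 difference 1.43) and 18 of 18 in LMC radial against C3-C5 GFP-only neurons (median 1.01). At an adjusted p under 0.05, 3 (16.7%) were higher in the first of these, against 0.973% of all probe sets, and 0 in the second, against 1.88%. Array means of 10 endothelial markers ran from 3.96 to 4.94 in phrenic, 3.83 to 4.61 in LMC radial and 3.56 to 4.02 in C3-C5 GFP-only samples, with 10 of 10 above 0 in both comparisons (medians 0.38 and 0.35) and 0 called. Array means of 9 progenitor and glial markers ran from 6.55 to 8.03 in phrenic, 6.62 to 7.11 in LMC radial and 6.41 to 6.64 in C3-C5 GFP-only samples. Against C3-C5 GFP-only neurons 6 of the 9 lay above 0 in phrenic and 7 in LMC radial neurons (medians 0.29 and 0.30). In the first of these 1 (11.1%) was called higher, Slc1a3, against 0.973% of all probe sets, and 0 in the second, against 1.88%. Of 16 skeletal muscle markers, 12 were below 5 on all 11 arrays.

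Most subunit genes gave bright signals in all 3 motor neuron types. The mean over the arrays was at least 5 for 72 of the 81 members and at least 9 for 68. The 9 members below 5 were Cox4i2, Cox6a2, Cox7a1, Cox7b2, Cox8b, Cox8c, Ndufa4l2, Ndufb1 and Ndufb4. The members averaged 9.88 ± 0.13 (SD, n = 4) over phrenic arrays, 9.94 ± 0.03 (n = 3) over LMC radial arrays and 9.99 ± 0.08 (n = 4) over C3-C5 GFP-only arrays. The array means lay between 9.72 and 10.03 in phrenic, between 9.91 and 9.96 in LMC radial and between 9.89 and 10.07 in C3-C5 GFP-only samples, so the ranges overlapped.

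No member passed in any comparison at an adjusted p under 0.05 in limma, which was fitted to 45037 probe sets with a mean for each cell type. In phrenic against C3-C5 GFP-only neurons 0 of 81 members were called higher, against 0.973% of all tested probe sets, and 0 lower, against 0.986%. In phrenic against LMC radial neurons the members again gave 0 higher and 0 lower, against 3.48% and 3.14% of all probe sets. In LMC radial against C3-C5 GFP-only neurons they gave 0 and 0, against 1.88% higher and 1.88% lower. At the lowest of these background shares a count of 0 among 81 genes is little by itself. The members are also no replicates of a cell type, so the sizes of the differences and their intervals follow. In sorted bulk RNA, fewer cells of a type and less RNA per cell cannot be told apart.

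The intervals bounded most differences to less than 2-fold. The 95% interval of the log2 difference lay within 2-fold in both directions (between -1 and 1) for 80 of 81 members (98.8%) in phrenic against C3-C5 GFP-only neurons, against 85.8% of all probe sets. The same held for 80 members (98.8%) in phrenic against LMC radial neurons, against 78.7%. It held for 78 members (96.3%) in LMC radial against C3-C5 GFP-only neurons, against 80.1%. For genes with a mean of at least 9, which are closer to the members in brightness, these shares were 95.5%, 93% and 95.5%. Within 1.5-fold lay the intervals of 60, 59 and 59 members (74.1%, 72.8% and 72.8%), against 73.8%, 69.4% and 74.6% of genes with a mean of at least 9, so the members were close to genes of like brightness at that width. The exceptions at 2-fold were Ndufs7 in phrenic against C3-C5 GFP-only, Ndufb4 in phrenic against LMC radial, and Ndufa6, Ndufs7 and Ndufv1 in LMC radial against C3-C5 GFP-only neurons.

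**Figure D1:**
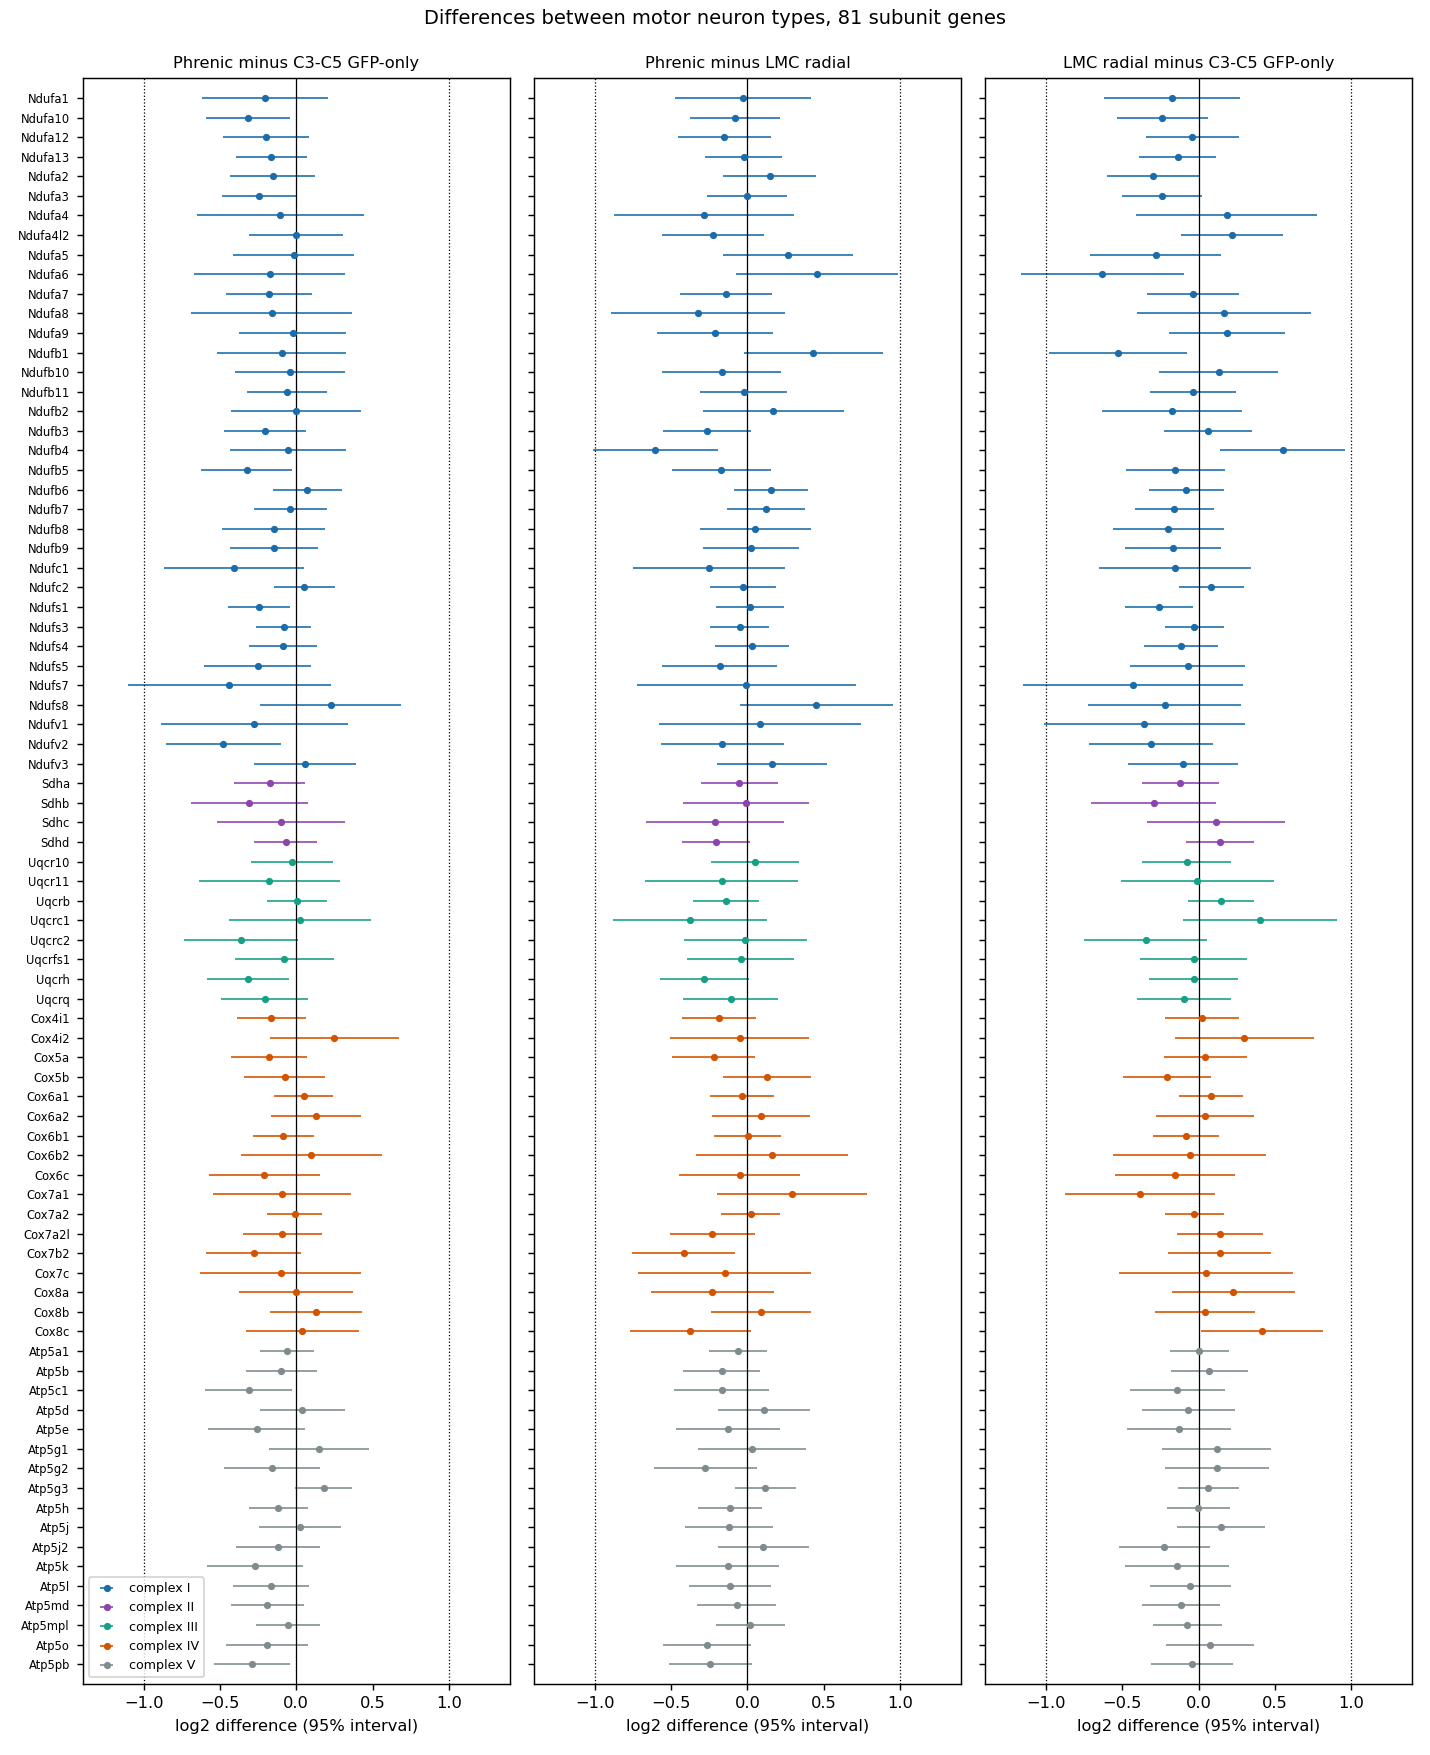
Log2 differences (points) with 95% intervals (lines) from limma for the 81 subunit genes, coloured by complex, in the 3 comparisons, and dotted lines at 2-fold. Points lie between -0.63 and 0.55, and 80, 80 and 78 of the intervals stay between the dotted lines.

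The means of the 3 types lay close together for each gene. The highest minus the lowest type mean had a median of 0.21 over the members and reached 0.63 in Ndufa6, an accessory subunit of complex I. It was below 0.5 for 78 of 81 members (96.3%), against 73.7% of all genes and 87.1% of genes with a mean of at least 9. It exceeded 1 for 0 members, against 6.68% and 3%. The SD within types, pooled over the types, had a median of 0.18 over the members, 0.23 over all genes and 0.17 over genes with a mean of at least 9. Thus the spread between replicates was about as large as the range of the type means for many members.

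**Figure D2:**
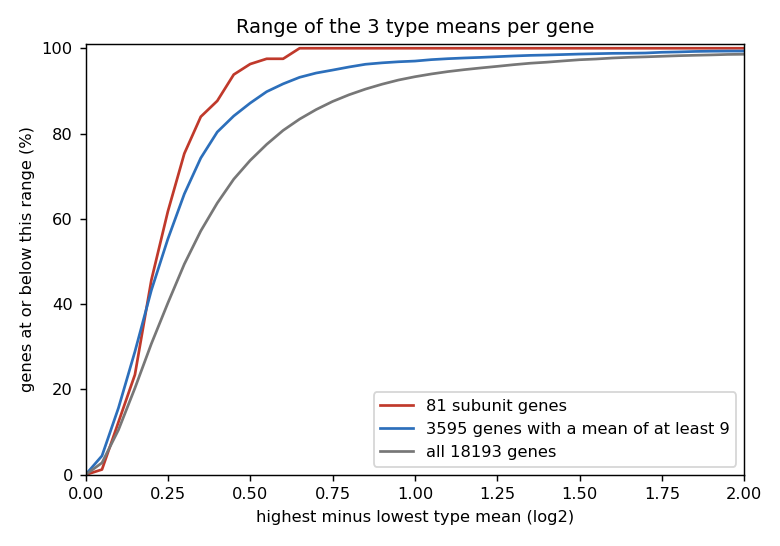
Cumulative share of genes (vertical axis, percent) by the range of their 3 type means (horizontal axis, log2) for the 81 members, for genes with a mean of at least 9 and for all genes. The curve of the members reaches 96.3% at a range of 0.5, where the others stand at 87.1% and 73.7%.

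In phrenic against C3-C5 GFP-only neurons the differences were small and more often below 0 than above. The median member difference was -0.10, with 16 members above 0 and 65 below, against a median of -0.0004 over all probe sets. At an unadjusted p under 0.05 stood 8 members (9.88%), all lower in phrenic neurons, against 13% of all probe sets. They were Ndufa10, Ndufa3, Ndufb5, Ndufs1 and Ndufv2 of complex I, Uqcrh of complex III, and Atp5c1 and Atp5pb of complex V. The arrays of both types did not overlap for 6 members (7.41%), against 7.49% of all probe sets. Atp5g3 was higher in all phrenic arrays, and Ndufs1, Ndufv2, Sdha, Uqcrh and Atp5h were lower. Of 3595 genes with a mean of at least 9, 707 stood at an unadjusted p under 0.05. Without overlap, 270 of these genes were higher and 273 lower in phrenic neurons. Both are larger shares than among the members.

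The median member difference in this comparison moved with the arrays used. It was -0.17 within the 7 arrays of higher 25th percentile, -0.036 within the 4 of lower 25th percentile and -0.10 with the array set as a block. Without phrenic replicates 1 and 4 together it was -0.041, and with the mean level of the mesenchyme markers as a covariate it was 0.026. The array means of these markers did not overlap between phrenic (5.31 to 6.86) and C3-C5 GFP-only samples (4.62 to 4.99). That covariate and the cell type therefore cannot be told apart, and the part of other cells in the difference was not tested.

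Ndufv2, an iron-sulfur subunit of the NADH-oxidising arm of complex I, had the smallest adjusted p of that comparison. Its log2 values were 10.36, 10.98, 10.999 and 10.37 in phrenic samples, against 11.12, 11.18, 11.14 and 11.17 in C3-C5 GFP-only samples. All phrenic values lay below all C3-C5 GFP-only values, with phrenic replicates 1 and 4 lowest. The log2 difference was -0.48 ± 0.17 (SE), with an interval of -0.85 to -0.10 and an adjusted p of 0.232. LMC radial samples had 10.58, 10.95 and 10.998, within the phrenic range. The separation from C3-C5 GFP-only samples held on this probe set only. On the other probe sets of Ndufv2, with means of 10.17 and 10.15, phrenic replicates 2 and 3 lay within or above the C3-C5 GFP-only range. Their log2 differences were -0.475 ± 0.30 (adjusted p = 0.588) and -0.45 ± 0.26 (adjusted p = 0.546).

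Ndufs1, another iron-sulfur subunit of that arm and the largest of complex I, had 9.70, 9.81, 9.63 and 9.69 in phrenic samples and 9.54, 9.81 and 9.73 in LMC radial samples, against 9.96, 9.99, 9.96 and 9.89 in C3-C5 GFP-only samples. Both dextran-labelled types lay below all C3-C5 GFP-only values and overlapped each other. The log2 differences to C3-C5 GFP-only neurons were -0.24 ± 0.09 for phrenic (adjusted p = 0.277) and -0.26 ± 0.10 for LMC radial neurons (adjusted p = 0.18). These comparisons share the C3-C5 GFP-only arrays.

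Ndufs7 and Ndufv1 varied most between phrenic arrays. Ndufs7, an iron-sulfur subunit near the quinone site, had 10.17, 11.61, 11.66 and 10.64 in phrenic samples, against 11.38, 11.73, 11.61 and 11.11 in C3-C5 GFP-only samples. Ndufv1, which binds NADH and the flavin, had 10.01, 11.19, 11.35 and 10.30 in phrenic samples, against 10.87, 11.22, 11.19 and 10.67 in C3-C5 GFP-only samples. Phrenic replicates 1 and 4 were low for both genes, and replicates 2 and 3 lay within or just outside the C3-C5 GFP-only range. The log2 differences were -0.44 ± 0.30 for Ndufs7 (adjusted p = 0.632) and -0.27 ± 0.28 for Ndufv1 (adjusted p = 0.786), so neither exceeded the spread between replicates. Ndufc1, an accessory subunit with a log2 difference of -0.41 ± 0.21 (adjusted p = 0.462), had 10.76, 11.26, 11.31 and 10.30 in phrenic samples, against 11.42, 11.23, 11.33 and 11.28 in C3-C5 GFP-only samples.

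Among the members above 0 in this comparison, Cox4i2 had the highest value (0.25 ± 0.19, adjusted p = 0.689), at levels below 5 in all but 1 array. Ndufs8, another iron-sulfur subunit, had 9.76, 10.27, 10.49 and 9.86 in phrenic samples, against 9.96, 10.09, 10.12 and 9.29 in C3-C5 GFP-only samples. The groups overlapped, and the log2 difference was 0.23 ± 0.21 (adjusted p = 0.753). Atp5g3, which encodes the c subunit of the ATP synthase rotor, had 12.31, 12.20, 12.23 and 12.12 in phrenic samples and 12.08, 12.10 and 12.11 in LMC radial samples, against 12.05, 12.03, 12.09 and 11.96 in C3-C5 GFP-only samples. All phrenic values lay above the other 7, by log2 differences of 0.18 ± 0.08 from C3-C5 GFP-only (adjusted p = 0.405) and 0.12 ± 0.09 from LMC radial neurons (adjusted p = 0.492). Atp5g2, another gene for the same c subunit, had 10.38, 10.33, 9.85 and 10.29 in phrenic samples, against 10.57, 10.51 and 10.39 in LMC radial samples, and was lower in all phrenic arrays of that pair.

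In phrenic against LMC radial neurons the median member difference was -0.054, with 27 members above 0 and 54 below, against -0.013 over all probe sets. At an unadjusted p under 0.05 stood 2 members (2.47%), Ndufb4 and Cox7b2, against 22.1% of all probe sets. The arrays did not overlap for 6 members (7.41%), against 18.7% of all probe sets. Ndufs8 and Atp5g3 were higher in all phrenic arrays, and Uqcrb, Cox4i1, Cox7b2 and Atp5g2 were lower. Of 3595 genes with a mean of at least 9, 674 stood at an unadjusted p under 0.05. Without overlap, 384 of these genes were higher and 385 lower in phrenic neurons. Within the 7 arrays of higher 25th percentile the median member difference was -0.16, and without phrenic replicates 1 and 4 it was 0.034.

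Ndufs8 had 9.58, 9.74 and 9.60 in LMC radial samples, just below the lowest phrenic value, and the log2 difference was 0.45 ± 0.23 (adjusted p = 0.274). Its other probe sets did not share one direction in that comparison. A second one of like brightness gave 0.38 and one with a mean of 5.98 gave 0.11, while the 3 with means of 9.40, 8.55 and 7.84 gave -0.24, -0.16 and -0.14, and none of them passed. Ndufa6 had 8.64, 9.62, 9.44 and 8.97 in phrenic samples and 8.49, 8.94 and 8.71 in LMC radial samples, against 9.30, 9.57, 9.56 and 8.94 in C3-C5 GFP-only samples. The LMC radial values were the lower ones, with overlap with phrenic replicate 1. The log2 differences were 0.46 ± 0.24 in phrenic against LMC radial (adjusted p = 0.297) and -0.63 ± 0.24 in LMC radial against C3-C5 GFP-only neurons (adjusted p = 0.177). Without phrenic replicates 1 and 4, a choice made after seeing the data, Ndufa6 passed in phrenic against LMC radial neurons (0.82, adjusted p = 0.0346).

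Ndufb4, an accessory subunit, had the smallest adjusted p of the members in both comparisons with LMC radial neurons, but on a dim probe set. Its log2 values were 2.67, 2.41, 3.22 and 2.96 in phrenic samples and 3.496, 3.60 and 3.16 in LMC radial samples, against 2.75, 2.97, 2.80 and 2.96 in C3-C5 GFP-only samples. The log2 differences were -0.60 ± 0.19 in phrenic against LMC radial (adjusted p = 0.0834) and 0.55 ± 0.19 in LMC radial against C3-C5 GFP-only neurons (adjusted p = 0.132). A pair of bright probe sets is annotated to Ndufb4 together with the near-identical copies Ndufb4b and Ndufb4c, and was outside the rule for that reason. The brighter of them had 10.39, 10.81, 10.87 and 10.17 in phrenic samples and 10.49, 10.63 and 10.58 in LMC radial samples, against 10.77, 10.86, 10.89 and 10.44 in C3-C5 GFP-only samples. The 3 types overlapped there, so the value of the dim probe set is no measure of the level of Ndufb4.

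In LMC radial against C3-C5 GFP-only neurons the median member difference was -0.054, with 30 members above 0 and 51 below, against 0.0035 over all probe sets. It was -0.0315 within the 7 arrays of higher 25th percentile, 0.0081 with the array set as a block and 0.036 with the arrays centred on their medians. At an unadjusted p under 0.05 stood 5 members (6.17%), against 20% of all probe sets, with Ndufa6, Ndufb1 and Ndufs1 lower and Ndufb4 and Cox8c higher in LMC radial neurons. Of these, Ndufb1 (4.28 to 5.28 over the arrays), Ndufb4 and Cox8c have a mean below 5. The arrays did not overlap for 12 members (14.8%), against 23.1% of all probe sets. Ndufb4 and Cox4i2 were higher, and Ndufa10, Ndufa3, Ndufa6, Ndufb1, Ndufs1, Ndufv2, Sdha, Sdhb, Uqcrc2 and Cox7a1 were lower in all LMC radial arrays. Of 3595 genes with a mean of at least 9, 372 stood at an unadjusted p under 0.05. Without overlap, 332 of these genes were higher and 402 lower in LMC radial neurons. In complex I 27 of 35 members lay below 0, with a median of -0.15, and in complex IV 6 of 17, with a median of 0.044.

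By complex, the means over the member genes overlapped between the types. Complex I, the NADH dehydrogenase, averaged 9.93 ± 0.19 (SD, n = 4) in phrenic, 9.96 ± 0.04 (n = 3) in LMC radial and 10.07 ± 0.09 (n = 4) in C3-C5 GFP-only samples. Its brightest members were the accessory subunits Ndufc2, with type means of 11.95 ± 0.04, 11.98 ± 0.11 and 11.90 ± 0.09 in that order, and Ndufb11, with 11.73 ± 0.20, 11.76 ± 0.09 and 11.80 ± 0.12. Adjusted p-values of both were at least 0.681 in the 3 comparisons.

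**Figure D3:**
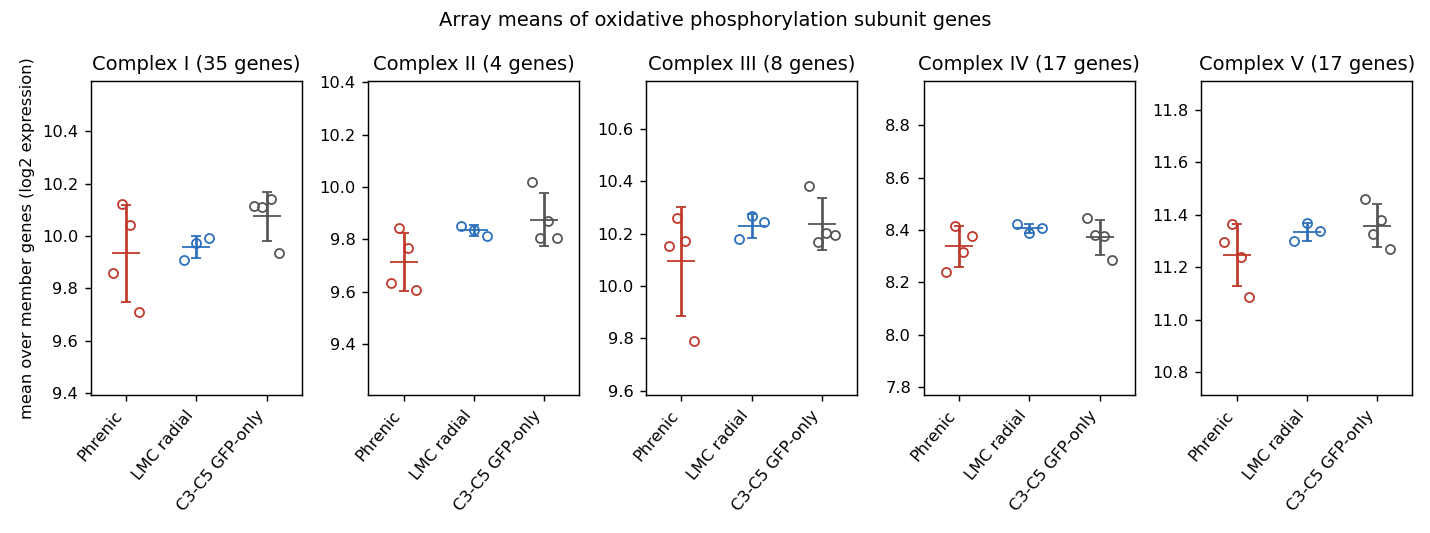
Mean log2 expression over the member genes of each complex (vertical axis, each panel spanning the same log2 width) on each array (circles), with the mean and SD of each type as bars, for phrenic, LMC radial and C3-C5 GFP-only samples. In complex I the phrenic arrays spread from 9.71 to 10.12 and enclose the LMC radial arrays (9.91 to 9.99).

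Complex II, succinate dehydrogenase, is wholly encoded by the nucleus, and its array means lay between 9.61 and 9.84 in phrenic, 9.81 and 9.85 in LMC radial and 9.80 and 10.02 in C3-C5 GFP-only samples. Sdha, the flavoprotein subunit, had 10.38, 10.75, 10.73 and 10.75 in phrenic samples and 10.64, 10.72 and 10.75 in LMC radial samples, against 10.92, 10.77, 10.77 and 10.83 in C3-C5 GFP-only samples. All C3-C5 GFP-only values lay above the others by a small margin, with log2 differences of -0.17 ± 0.11 for phrenic (adjusted p = 0.57) and -0.12 ± 0.12 for LMC radial neurons (adjusted p = 0.599). On another bright probe set of Sdha (mean 10.49) the types overlapped, with -0.23 (adjusted p = 0.396) and -0.13 (adjusted p = 0.553). Sdhb, the iron-sulfur subunit, averaged 9.38 ± 0.38 in phrenic, 9.39 ± 0.09 in LMC radial and 9.69 ± 0.15 in C3-C5 GFP-only samples, and phrenic replicates 1 and 4 were its low arrays at 8.98 and 9.15. The membrane anchors behaved differently: Sdhc had 9.43, 9.24, 8.60 and 8.68 in phrenic samples, against 9.27, 9.25 and 9.08 in LMC radial samples, and here phrenic replicates 3 and 4 were low. Sdhd averaged 9.83 ± 0.10, 10.04 ± 0.10 and 9.90 ± 0.07 in the types in the same order, with -0.21 ± 0.10 in phrenic against LMC radial neurons (adjusted p = 0.261).

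Complex III, the cytochrome bc1 complex, averaged 10.09 ± 0.21 in phrenic, 10.23 ± 0.05 in LMC radial and 10.24 ± 0.10 in C3-C5 GFP-only samples. Uqcrh, the acidic hinge protein that contacts cytochrome c1, had 11.78, 11.998, 11.82 and 11.47 in phrenic samples and 11.90, 12.11 and 12.14 in LMC radial samples, against 12.18, 12.005, 12.03 and 12.11 in C3-C5 GFP-only samples. Phrenic values lay below all C3-C5 GFP-only values, by a narrow margin for replicate 2, and overlapped the LMC radial ones. The log2 difference was -0.32 ± 0.12 to C3-C5 GFP-only (adjusted p = 0.282) and -0.28 ± 0.13 to LMC radial neurons (adjusted p = 0.238). The core proteins differed in their pattern, since Uqcrc2 averaged 11.51 ± 0.39, 11.52 ± 0.08 and 11.87 ± 0.08 in phrenic, LMC radial and C3-C5 GFP-only samples, and Uqcrc1 averaged 8.61 ± 0.32, 8.98 ± 0.11 and 8.58 ± 0.42. Neither passed in any comparison. The smallest adjusted p was 0.321 for Uqcrc2 and 0.359 for Uqcrc1.

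Complex V, the ATP synthase, averaged 11.25 ± 0.12 in phrenic, 11.33 ± 0.03 in LMC radial and 11.36 ± 0.08 in C3-C5 GFP-only samples. The pooled SD within genes had a median of 0.16 over its members, the lowest of the 5 complexes, although the array means of complex IV had smaller SDs in each type. All 17 of 17 intervals lay within 1.5-fold in LMC radial against C3-C5 GFP-only neurons. Atp5a1, the alpha subunit of the catalytic head, averaged 12.10 ± 0.06, 12.16 ± 0.02 and 12.16 ± 0.01 in phrenic, LMC radial and C3-C5 GFP-only samples. Atp5b, the catalytic beta subunit, averaged 11.12 ± 0.10, 11.29 ± 0.07 and 11.22 ± 0.16. Atp5c1, the gamma subunit of the central stalk, had 11.21, 11.59, 11.51 and 11.05 in phrenic samples, against 11.66, 11.70, 11.70 and 11.53 in C3-C5 GFP-only samples. Phrenic replicates 1 and 4 were again low, and the log2 difference was -0.31 ± 0.13 (adjusted p = 0.332). Atp5h, whose promoter is shown above, had 11.42, 11.47, 11.43 and 11.26 in phrenic samples, against 11.54, 11.48, 11.53 and 11.51 in C3-C5 GFP-only samples, with a log2 difference of -0.12 ± 0.09 (adjusted p = 0.672). The groups were separated by a narrow margin only (11.472 against 11.476). On another bright probe set of Atp5h (mean 10.88) they overlapped, with -0.24 (adjusted p = 0.422).

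Complex IV, cytochrome c oxidase, averaged 8.34 ± 0.08 in phrenic, 8.41 ± 0.02 in LMC radial and 8.37 ± 0.07 in C3-C5 GFP-only samples. On the probe sets chosen by brightness, the widely expressed form of each pair of isoforms was bright in all types, and the forms known from muscle, lung and testis stayed near or below the array medians except Cox6b2. A second probe set of Cox8c, whose values follow later, lay above 5 in LMC radial arrays. Different probe sets cannot be compared in level, so this is a statement about signal over the array background. Cox4i1, the widely expressed form, had 11.49, 11.55, 11.49 and 11.16 in phrenic samples and 11.56, 11.64 and 11.62 in LMC radial samples, against 11.63, 11.54, 11.57 and 11.60 in C3-C5 GFP-only samples. Its lung form Cox4i2 lay between 4.08 and 5.08 on all arrays.

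Cox6a1, whose promoter is shown above, averaged 11.91 ± 0.01 in phrenic, 11.94 ± 0.09 in LMC radial and 11.86 ± 0.09 in C3-C5 GFP-only samples, while the muscle form Cox6a2 lay between 4.33 and 5.02. Cox7a2 averaged 12.59 ± 0.06, 12.57 ± 0.02 and 12.60 ± 0.04 in that order, while the muscle form Cox7a1 lay between 4.38 and 5.45. Cox7a2 was the brightest of all members. Its log2 difference in phrenic against C3-C5 GFP-only neurons was -0.01, with an interval of -0.19 to 0.17. Cox7a2l, a relative that takes part in supercomplex assembly, averaged 10.34 ± 0.16, 10.57 ± 0.08 and 10.43 ± 0.17.

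Cox8a averaged 9.31 ± 0.27 in phrenic, 9.54 ± 0.14 in LMC radial and 9.32 ± 0.29 in C3-C5 GFP-only samples, while the muscle form Cox8b lay between 3.74 and 4.38 and the testis form Cox8c between 4.24 and 5.13. Cox7b2 lay between 2.28 and 3.11. Ndufa4l2, a relative of Ndufa4 known for its response to low oxygen, lay between 4.33 and 5.07. Ndufa4 carries a complex I symbol, although its protein is known as a subunit of complex IV. It had 10.496, 10.07, 9.58 and 9.07 in phrenic samples, against 9.995, 10.06 and 10.21 in LMC radial samples. The phrenic values lay on both sides of the LMC radial ones.

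**Figure D4:**
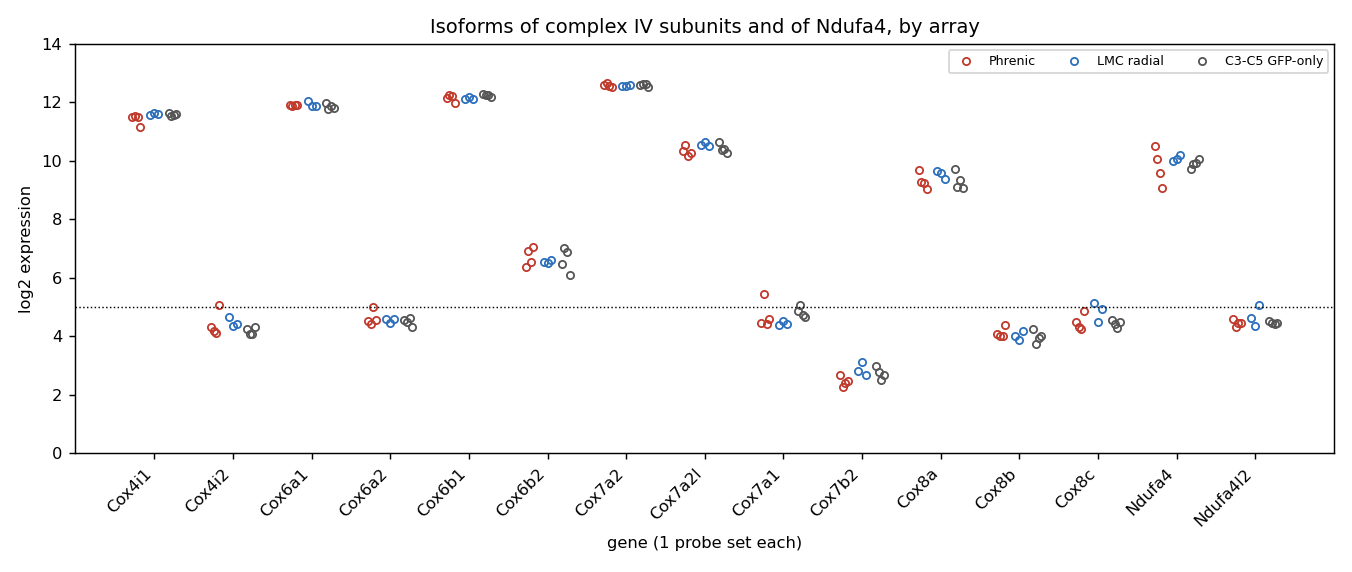
Log2 expression on each array (circles, coloured by cell type) for isoforms of complex IV subunits and for Ndufa4 and Ndufa4l2, with a dotted line at 5. Cox4i1, Cox6a1, Cox6b1 and Cox7a2 stay above 11 on all arrays, and Cox6b2 lies between 6.11 and 7.06. Levels of different genes come from different probe sets and are not comparable.

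Cox6b2 is known as the testis form of Cox6b1. Cox6b1 averaged 12.16 ± 0.12 in phrenic, 12.15 ± 0.04 in LMC radial and 12.24 ± 0.04 in C3-C5 GFP-only samples. Cox6b2 had 6.36, 6.92, 6.53 and 7.06 in phrenic samples and 6.54, 6.502 and 6.63 in LMC radial samples, against 6.47, 7.02, 6.88 and 6.11 in C3-C5 GFP-only samples. All 11 values exceeded 6 and the types overlapped, with log2 differences of 0.10 ± 0.21 in phrenic against C3-C5 GFP-only (adjusted p = 0.917) and 0.16 ± 0.23 in phrenic against LMC radial neurons (adjusted p = 0.727).

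A second probe set of Cox8c gave differences in the same direction as the chosen one, but larger, and only the second one passed. It had 4.31, 3.40, 3.42 and 3.93 in phrenic samples and 5.90, 6.10 and 5.03 in LMC radial samples, against 4.02, 3.58, 3.28 and 3.75 in C3-C5 GFP-only samples. The LMC radial values were the highest, with log2 differences of -1.91 ± 0.30 in phrenic against LMC radial (adjusted p = 0.00353) and 2.02 in LMC radial against C3-C5 GFP-only neurons (adjusted p = 0.00517). The chosen probe set of Cox8c gave -0.37 ± 0.18 (adjusted p = 0.257) and 0.41 ± 0.18 (adjusted p = 0.232). Over all 164 probe sets of the members, 1 (0.61%) passed as higher in LMC radial against C3-C5 GFP-only neurons, that of Cox8c, against 1.88% of all probe sets. In phrenic against LMC radial neurons 3 (1.83%) passed as lower, against 3.14% of all probe sets, and none was the brightest of its gene. The other two belonged to Cox6a2 and Ndufb9 and lay below 5 on all 11 arrays, so no difference is read from them. The brightest probe set of Ndufb9 gave 0.02 (adjusted p = 0.94).

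Phrenic replicates differed most among themselves. The median SD over the members was 0.24 among phrenic, 0.09 among LMC radial and 0.13 among C3-C5 GFP-only arrays. Over all genes these medians were 0.25, 0.16 and 0.18. Phrenic replicate 4 held the lowest of the 11 values for 28 of 81 members (13.2% of all genes). Phrenic replicate 1 did so for 19 (11.5% of all genes). C3-C5 GFP-only replicate 1 held the highest for 20, but the share of all genes was not counted for that, so nothing is read from it. Phrenic replicate 4 also had the highest array means of mesenchyme (6.86), progenitor and glial (8.03), interneuron (6.04) and macrophage (4.71) markers. Phrenic replicate 1 had 5.78, 6.99, 5.22 and 3.59 for these. The endothelial mean of replicate 4 (4.09) lay within the range of the other phrenic arrays, and its motor neuron mean (8.12) was their highest. The part of other cells in the low values was not tested. Sorted by the 25th percentile, the phrenic arrays of the lower set exceeded those of the higher set in 62 of 81 members, with a median difference of 0.17 over the members. The same direction held for 8235 of all 18193 genes and for 1770 of 3595 genes with a mean of at least 9. The difference exceeded 0.5 for 14 members (17.3%), against 11.6% of all genes and 5.73% of genes with a mean of at least 9.

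Of these 14 members 10 belonged to complex I, with Ndufs7 at 1.23 and Ndufv1 at 1.12. The same split in C3-C5 GFP-only arrays gave a median of 0.022, with 1 member above 0.5. The 3′ minus 5′ difference of the beta-actin control probe sets, a measure of RNA integrity and labelling length, was 1.05, 1.71, 2.15 and 1.96 in phrenic, 1.05, 1.01 and 1.12 in LMC radial and 1.29, 1.98, 1.79 and 1.07 in C3-C5 GFP-only samples. With it as a covariate 0 members were called, and the median member differences were -0.11, -0.068 and -0.0405 in phrenic against C3-C5 GFP-only, phrenic against LMC radial and LMC radial against C3-C5 GFP-only neurons. Its part in the spread of phrenic arrays was not tested.

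**Figure D5:**
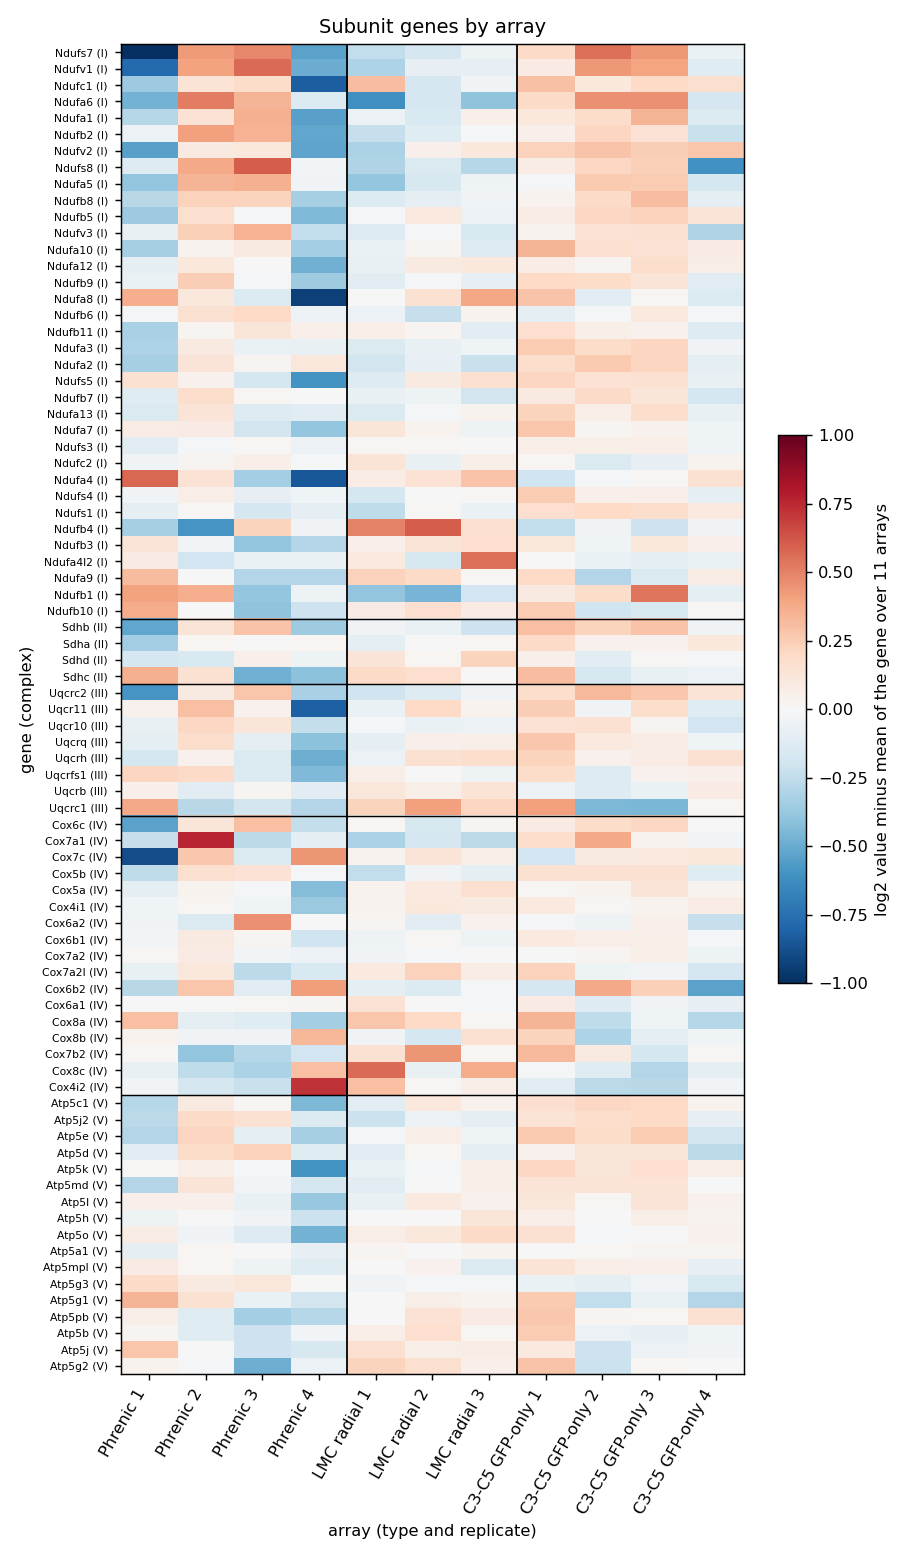
Log2 value minus the gene's mean over the 11 arrays (colour scale from -1 to 1) for each of the 81 members (rows, complex in brackets) on each array (columns, phrenic left, then LMC radial and C3-C5 GFP-only). Within a complex the rows are ordered by phrenic replicates 2 and 3 minus replicates 1 and 4. Phrenic replicates 1 and 4 are blue across the upper rows of complex I, where replicates 2 and 3 are red.

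Genes that build or feed the complexes were read from lists outside the members. Their counts stand against the shares of all probe sets given above for calls in each direction, and against 13%, 22.1% and 20% at an unadjusted p under 0.05, in phrenic against C3-C5 GFP-only, phrenic against LMC radial and LMC radial against C3-C5 GFP-only neurons. Of 44 measured assembly factors, 0, 1 and 0 were higher and 0, 0 and 1 lower in these comparisons. At an unadjusted p under 0.05 stood 6, 8 and 3 (13.6%, 18.2% and 6.82%), near or below the shares of all probe sets. The gene called was Ndufaf6, an assembly factor of complex I. It had 6.73, 6.92, 6.85 and 6.76 in phrenic samples and 5.96, 6.34 and 6.25 in LMC radial samples, against 6.53, 6.75, 6.81 and 6.78 in C3-C5 GFP-only samples. The LMC radial values were lower than all others. The log2 differences were 0.63 ± 0.12 in phrenic against LMC radial (adjusted p = 0.0115) and -0.53 ± 0.12 in LMC radial against C3-C5 GFP-only neurons (adjusted p = 0.0378). Under 25 alternatives each, these passed in 22 and 11.

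Of 17 genes of mitochondrial DNA maintenance and biogenesis, 2 were higher (11.8%, against 3.48% of all probe sets) and 1 lower (5.88%, against 3.14%) in phrenic against LMC radial neurons, and 0 passed in the other comparisons. At an unadjusted p under 0.05 stood 3 (17.6%) in each of the 3 comparisons, near the shares of all probe sets. Ppargc1a, a coactivator of mitochondrial biogenesis, had 6.82, 6.86, 6.20 and 6.61 in phrenic samples, against 5.95, 5.94 and 5.03 in LMC radial samples, a log2 difference of 0.99 ± 0.23 (adjusted p = 0.0303). Tfb1m, which methylates mitochondrial ribosomal RNA, had 7.30, 7.44, 8.40 and 7.13 in phrenic samples, against 6.41, 6.60 and 6.28 in LMC radial samples (1.14 ± 0.26, adjusted p = 0.0235). Twnk, the mitochondrial DNA helicase, was lower in phrenic neurons (-0.53 ± 0.13, adjusted p = 0.0347). The groups did not overlap for any of these 3 genes. They passed in 14, 16 and 12 of 25 alternatives, and the subunit genes gave 0 calls in the same comparison.

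Of 12 measured carriers and channels, Slc25a13, the aspartate and glutamate carrier of the malate-aspartate shuttle, was called in both comparisons with phrenic neurons. It had 7.94, 8.30, 8.56 and 7.92 in phrenic samples and 6.51, 7.34 and 6.46 in LMC radial samples, against 6.28, 6.57, 6.53 and 6.33 in C3-C5 GFP-only samples. Phrenic values lay above all others, by 1.75 ± 0.21 from C3-C5 GFP-only (adjusted p = 0.00166) and 1.41 ± 0.23 from LMC radial neurons (adjusted p = 0.00456). It passed in 24 of 26 and 23 of 25 alternatives, and missed the threshold in both comparisons within the 7 arrays of higher 25th percentile, with the mesenchyme covariate in the first and with the beta-actin covariate in the second. In the first comparison the mesenchyme covariate cannot be told apart from the cell type. The other 11 carriers and channels gave 0 calls, and 1, 1 and 0 of the 12 stood at an unadjusted p under 0.05.

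Of 17 measured genes of the tricarboxylic acid cycle and pyruvate dehydrogenase, Dld, a dehydrogenase shared by these enzyme complexes, was lower in LMC radial than in C3-C5 GFP-only neurons (-0.60 ± 0.14, adjusted p = 0.0371), which held in 8 of 25 alternatives. Of the 17, 2, 1 and 2 stood at an unadjusted p under 0.05 in the 3 comparisons. Of 76 mitochondrial ribosomal proteins 2 (2.63%) were lower in LMC radial against C3-C5 GFP-only neurons, against 1.88% of all probe sets, namely Mrpl4 (-0.74, adjusted p = 0.023) and Mrpl39 (-0.48, adjusted p = 0.0447), which held in 14 and 9 of 25 alternatives. In phrenic against C3-C5 GFP-only neurons 65 of these 76 lay below 0, with a median of -0.15. At an unadjusted p under 0.05 stood 13, 12 and 8 of the 76 in the 3 comparisons (17.1%, 15.8% and 10.5%), against 13%, 22.1% and 20% of all probe sets. Of 49 cytosolic ribosomal proteins, another group of short abundant transcripts, 43 lay below 0 with a median of -0.081 in the same comparison. None of them passed, with 2, 5 and 0 at an unadjusted p under 0.05 in the 3 comparisons. Among 11 genes of cytochrome c and quinone synthesis and 5 of uncoupling, 0 passed, with 2, 1 and 0 and with 0, 0 and 0 at an unadjusted p under 0.05.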

How the data were processed

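The deposited values are log2 expression values, 1 per probe set and array. Per the submitters' processing notes the authors made them with RMA (background correction, quantile normalization and a summary over the probes of each set). Its version is not given in the sources used here. Per the labels' protocols, biotinylated cRNA was made from 6 ug of total RNA. Of 45101 probe sets, 64 controls were left out and 45037 tested. Gene symbols are GEO's platform annotation. Probe sets with 1 symbol (34945) cover 18193 genes, 932 have several symbols and 9160 none. A mean per type was fitted with limma 3.58.1 under R 4.3.3 (8 residual and 2.92 prior degrees of freedom). Two-sided p-values were adjusted by Benjamini and Hochberg over all 45037 within each of 3 comparisons. The 3 comparisons share arrays. The number of arrays limits the precision. The fit was tested on simulated data.

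The members and lists were chosen with earlier results of these data known. Named are the 2 brightest members per complex, the isoforms, the 3 largest differences per comparison and direction, all complex II genes, and up to 4 genes per pathway list, those with the smallest p. Further members were named after their values were seen. The promoter motifs are 4 of 10 spellings counted, kept after their counts were seen. Phrenic and C3-C5 GFP-only samples share replicate numbers, and the deviations of same-numbered samples correlated weakly, at 0.13, 0.18, 0.22 and 0.18. Those with LMC radial samples did not (-0.08 to 0.05). The labels do not say what the numbers mark. Replicates 2 and 3 of both types are also the arrays of lower 25th percentile, so pairing and array set cannot be told apart. The fit reported treats the arrays as unpaired, and a replicate block, which takes the numbers as pairs, was an alternative. Alternatives were other scalings, filters, floors, priors, array weights, replicate and array set blocks, covariates and leaving out each array.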

Additional observations from a re-analysis of the deposited data

Results flagged for a closer look

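An array stood far from the other 3 of its type in 9 of 94 groups of 4 arrays examined, where chance flags about 1 in 20 such groups. Phrenic replicate 1 was far below its replicates for Sdha (10.38, next 10.73) and far above them for Uqcrc1 (9.08, next 8.51). Phrenic replicate 4 was far below for Cox4i1 (11.16, next 11.49) and for Dld (7.15, next 7.60). Phrenic replicate 2 was far above for Cox7a1 (5.45, next 4.60), near the array medians. C3-C5 GFP-only replicate 4 was far below for Cox5b (12.36, next 12.63) and for the mean of complex I (9.93, next 10.11). C3-C5 GFP-only replicate 2 was far above for Mrpl39 (10.37, next 10.14), and replicate 1 for the mean of complex III (10.38, next 10.20).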

How the results depend on the processing

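Over 26 alternatives, 19 called no member and 7 called 1 or more. In phrenic against LMC radial neurons, 1 member was lower with array weights (Ndufb4), 1 with the mean of a gene's probe sets (Cox8c), 1 with the mesenchyme covariate (Ndufb4) and 0 to 1 when an array was left out (Ndufb4 without phrenic replicate 3, adjusted p = 0.0354). Without phrenic replicates 1 and 4, chosen after seeing the data, 2 were higher (Ndufa6 and Ndufv1). In LMC radial against C3-C5 GFP-only neurons, 1 was higher with array weights, 1 in a fit of the 2 types only (both Ndufb4) and 1 with the mean of a gene's probe sets (Cox8c), and 2 were lower with array weights (Ndufa6 and, on a dim probe set, Ndufb1). With replicate number as a block 1 was lower there (Ndufa6, -0.73, adjusted p = 0.0415), although the labels do not say that these numbers pair the samples. The block changed no other member call. In phrenic against C3-C5 GFP-only neurons 1 was lower with the mean of a gene's probe sets (Ndufa10), and the median difference was 0.026 with the mesenchyme covariate. The cause was not tested. When an array was left out, the median differences lay from -0.19 to -0.072 in phrenic against C3-C5 GFP-only, -0.12 to -0.022 in phrenic against LMC radial and -0.086 to -0.0399 in LMC radial against C3-C5 GFP-only neurons. Of 2481 values of 33 named members under these settings, 11 passed and 197 had the opposite sign of the fit reported. Calls over all probe sets, 882, 2979 and 1694 in the 3 comparisons, ranged over settings from 127 to 1240, from 778 to 5574 and from 98 to 6685. Signal over background limits the 9 members with a mean below 5.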
